A study of Mus musculus with 3 samples.

Results

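The cells described here are Sirpa-positive mature dendritic cells from the Peyer's patches of mice given a Toll-like receptor agonist. They were chosen by rule from single-cell RNA counts: 230 cells in the CpG library and 244 in the R848 library, 474 of the 10130 cells kept in those libraries. A member had, per 10000 unique molecular identifiers (UMIs, counted transcript molecules), at least 15 of Ccr7 plus Fscn1 and fewer than 40 of Lyz1 plus C1qa, C1qb and C1qc. It also had, as plain UMIs, at least 1 of Sirpa, none of Xcr1, fewer than 3 of Il12b, fewer than 2 of Il6 and fewer than 3 of Cd79a. Ccr7 and Fscn1 are the genes of the lymph-node homing receptor and of the actin-bundling protein fascin, both marks of dendritic cell maturation. Their levels, and those of the other genes in the rule, chose the cells and are given only as a description.

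Dendritic cells sense microbes through Toll-like receptors and then mature: they raise Ccr7, surface costimulatory molecules and chemokines, take up less antigen, and move to T cell zones. Conventional dendritic cells of type 2 (cDC2) carry the signal regulatory protein SIRPα and are known for priming helper T cells, whereas type 1 cells (cDC1) carry the chemokine receptor XCR1. In Peyer's patches, the lymphoid follicles of the small intestine, dendritic cells beneath the epithelium meet luminal antigen and help start IgA responses.

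All mice were female C57BL/6Rj, and each library pooled 12 of them. Control mice were untreated and had no mock injection (88 Peyer's patches). The CpG mice were injected intraperitoneally with 125 µg of CpG, DNA with unmethylated CpG motifs that activates TLR9, and taken at 9 h (85 patches). The R848 mice had 10 µg of R848, an imidazoquinoline that activates TLR7, by the same route and for the same time (90 patches). Live CD11c-positive cells sorted as cDC1, cDC2, LysoDC (monocyte-derived cells that make lysozyme) and macrophages were loaded together, so the sort can set the share of any class. Ages are not in the labels. There was 1 library per group, so no comparison below has a replicate or a test, and library, dose, agonist and pool of mice cannot be told apart. Intervals in brackets are exact 95% intervals, except those of differences between ratios, which are a normal approximation, and all cover counting error only. The libraries held between 43537067 and 46556726 UMIs, with 5304 Control, 5023 CpG and 5107 R848 cells kept. Pairs of libraries shared 33 to 42 cell barcodes. The members summed to 1658109 UMIs with CpG and 1659805 with R848, with a median of 6610.5 and 6334 UMIs per cell. Levels are CPM, the UMIs of a gene per 1000000 UMIs of the class.

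The Sirpa UMI separated these cells weakly from other mature cells. In 198 of 230 CpG members (86.1%) and 213 of 244 R848 members (87.3%) it was a single molecule. Among mature cells with no Xcr1 UMI, 11.8% had a Sirpa UMI with CpG (10.4 to 13.3) and 12.5% with R848 (11.0 to 14.0). B-lineage cells, which should lack Sirpa, had one in 10.6% (3.55 to 23.1) and 8.86% (3.64 to 17.4) of cells, and Xcr1-positive mature cells in 11.7% (4.82 to 22.6) and 4.95% (2.29 to 9.18). Median depths were 5353 and 5248 UMIs in the Xcr1-negative mature cells against 7957 and 7222 in B-lineage cells. With each cell thinned to 3000 UMIs, averaged over all draws, and with 176 and 195 shallower Xcr1-negative mature cells left out, the expected shares were 6.35% (5.26 to 7.58) and 7.18% (6.02 to 8.48). The same thinning left 4.84% (0.716 to 15.4) and 4.14% (0.907 to 11.4) of B-lineage cells with Sirpa, and 24.9% (21.4 to 28.6) and 24.1% (20.5 to 28.0) of the resting cells that met the other limits. With either agonist the share with Sirpa was within the counting interval of the B-lineage share, although with R848 it lay above that of the Xcr1-positive mature cells. As a level, Sirpa stood at 23 CPM (20.3 to 25.9) and 24.8 CPM (22 to 27.9) in the Xcr1-negative mature cells, and at 22.6 CPM (10.3 to 42.8) and 10.3 CPM (4.16 to 21.3) in B-lineage cells. Free RNA in the droplets, estimated from the C1q genes, would give 4.70 and 6.18 CPM of Sirpa in the members and 3.47 and 5.67 CPM in B-lineage cells. The estimate is rough, because both classes were chosen with a limit on Lyz1 plus the C1q genes. It also took the summed counts of the whole library as the make-up of free RNA. The B-lineage cells also held 7393 and 5725 CPM of lysozyme-cell markers, more than the members (2221 and 1635 CPM), and the part of these in their Sirpa share was not tested. In Control it was higher: 26.0% (21.0 to 31.5) of its Xcr1-negative mature cells had a Sirpa UMI, against 8.96% (3.36 to 18.5) of B-lineage cells, and 17.1% against 3.80% after thinning.

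**Figure D1:**
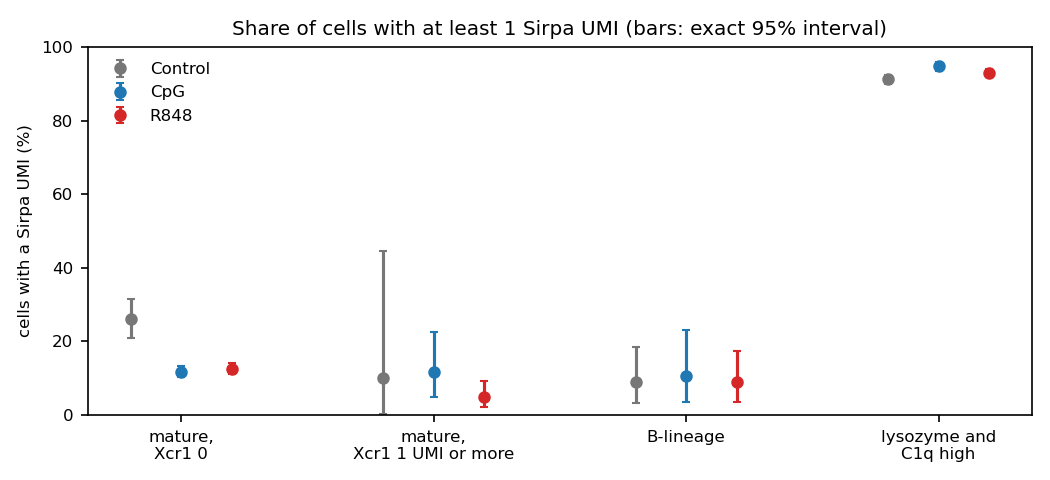
Share of cells with at least 1 Sirpa UMI (vertical axis, percent) in 4 cell classes (horizontal axis) of the Control, CpG and R848 libraries, with points for shares and bars for exact 95% intervals. The Xcr1-negative mature cells of the CpG and R848 libraries sit near the B-lineage cells, and lysozyme- and C1q-high cells lie between 91.2% and 94.9%.

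The members held high levels of maturation markers and less of the cDC2 markers than resting cells did. All 10 maturation markers outside the rule were detected, and together they stood at 7656 (7523 to 7790.1) CPM with CpG and 8331 (8193 to 8471) CPM with R848, against 935 and 1036 CPM in resting Sirpa-positive cells of the same libraries. Of 15 cDC2 markers other than Sirpa, 15 and 14 were above 0, with a summed level of 312 (286 to 341) and 281 (256 to 307) CPM. That lay between the mature cells with neither Sirpa nor Xcr1 (199.7 and 194 CPM) and the resting cells (952 and 1039 CPM), and above the 80.9 and 57.8 CPM of Xcr1-positive mature cells. Cd209a, the lectin gene that marks a large cDC2 group, had 1 UMI with CpG and 0 with R848. The 13 cDC1 markers outside the rule summed to 727 (687 to 769.6) and 841 (798 to 886) CPM, against 996 and 1613 CPM in Xcr1-positive mature cells, 870.2 and 952 CPM in Sirpa-0 mature cells and 796 and 815 CPM in resting cells. Cd8a, a cDC1 gene, stood at 21.1 CPM (14.7 to 29.4) and 19.9 CPM (13.7 to 27.9), against 159.6 CPM (126 to 200.1) and 212 CPM (189 to 238) in the Xcr1-positive cells. The members are called by their rule, Sirpa-positive mature cells.

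Transcripts of other cell types were present at low to moderate levels. The 10 lysozyme-cell and macrophage markers outside the rule, mostly Lyz2, summed to 2221 CPM with CpG (10 of 10 above 0) and 1635 CPM with R848 (9 of 10), above the 1212 and 1133 CPM of Sirpa-0 mature cells. The 73 Control cells that met the same rule held 7806 CPM of them. B cell markers summed to 39.2 and 27.7 CPM and T cell markers to 1.21 and 1.81 CPM, and all 6 mast cell and basophil markers were at 0. Of the other lists, with CpG and R848 in turn, plasma cell markers were at 92.3 and 46.4 CPM, natural killer and innate lymphoid markers at 141 and 199 CPM, and neutrophil markers at 3.62 and 2.41 CPM. Epithelial markers were at 3.02 and 7.83 CPM, stromal markers at 66.9 and 34.9 CPM, and proliferation markers at 180.3 and 73.5 CPM. Plasmacytoid markers reached 774 and 883 CPM, of which Bst2, also interferon-stimulated, gave 704 and 801 CPM.

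**Figure D2:**
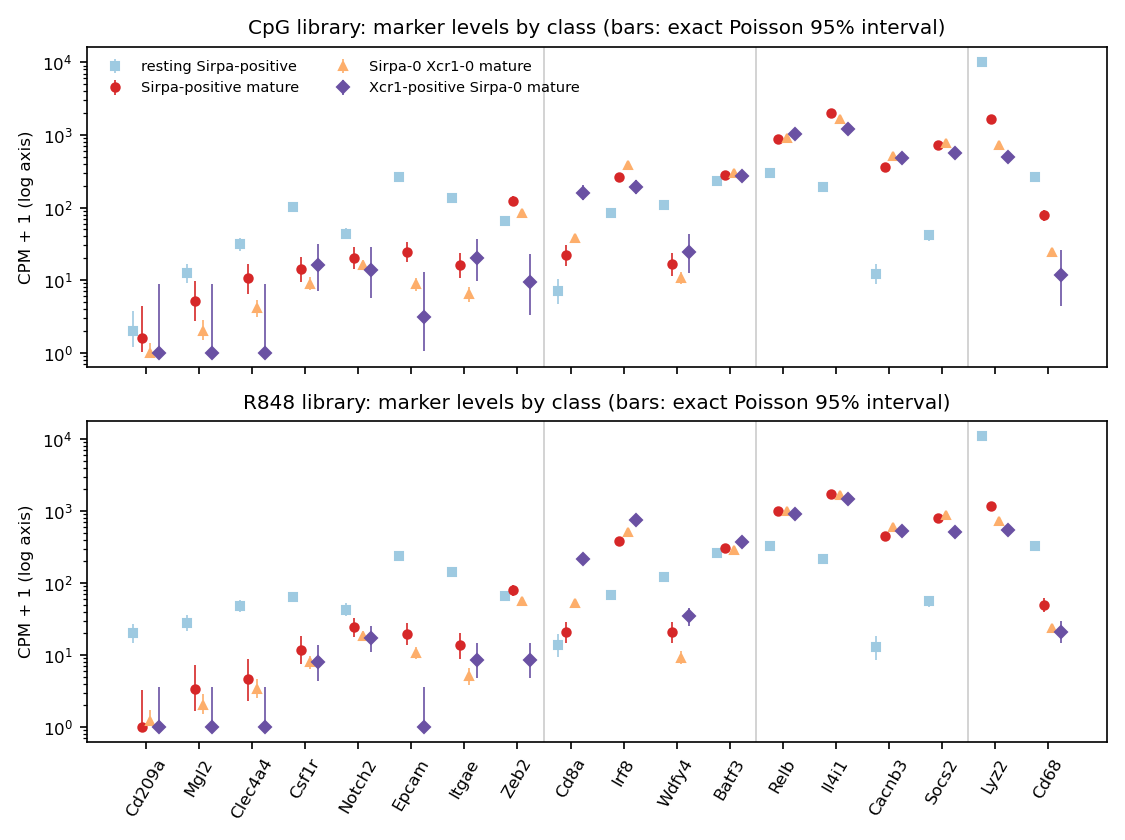
Levels of 18 marker genes (horizontal axis) as CPM plus 1 on a log axis, in 4 classes of the CpG library (top) and the R848 library (bottom), with exact Poisson 95% intervals. Grey lines separate cDC2, cDC1, maturation and lysozyme-cell genes, except that Itgae, counted as a cDC1 marker in the text, is drawn in the cDC2 block. The Sirpa-positive mature cells lie with the other mature cells for maturation genes, and for Epcam at 23.5 and 18.7 CPM they lie far below the resting cells at 262 and 239 CPM.

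Near the maturity limit of 15 UMIs per 10000, 11 CpG and 15 R848 members lay between 15 and 20, and 15 and 12 Sirpa-positive cells lay between 10 and 15 and were not members. Both Ccr7 and Fscn1 were detected in 227 of the CpG members and 241 of the R848 members. Ccr7 stood at 3369.5 and 2869 CPM and Fscn1 at 3876 and 2839 CPM. Of all Sirpa-positive mature and resting cells by these limits, 41.4% (37.2 to 45.6) were mature with CpG and 48.3% (43.9 to 52.8) with R848, against 7.12% (5.62 to 8.86) in Control. The limits on Il12b and Il6 removed the libraries' cells unevenly: 166 CpG but 13 R848 cells met every other limit and were left out by them. Without those limits the mature share was 54.3% with CpG and 49.3% with R848, so the order of the agonists in that share depended on them.

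The first question was which genes set the members apart from resting Sirpa-positive cells of their own library (326 cells with CpG and 261 with R848, with the same limits but Ccr7 plus Fscn1 below 15 and Naaa, Xcr1 plus Clec9a below 8). With both agonists the members held more of most listed maturation genes, and less of most glycolytic genes measured. Few of the listed uptake genes could be measured, and most of those were lower. A gene counted as higher or lower when the ratio was at least 2-fold with 5 CPM added to both classes and its interval left out 1, among genes with at least 20 CPM and 20 UMIs in the higher class. By that rule 556 of 5286 genes were higher (10.5%) and 958 lower (18.1%) with CpG, and 563 of 5194 were higher (10.8%) and 1213 lower (23.4%) with R848. The higher genes of both libraries had 423 in common, 76.1% of the CpG genes and 75.1% of the R848 genes, and the lower genes 742, 77.5% and 61.2%. The rule used this contrast, so these counts describe it. Leaving out cells with markers of other cell types or of dividing cells kept 144 of the 326 CpG and 149 of the 261 R848 resting cells. It kept 201 CpG and 219 R848 members. The counts were then 576 higher and 1028 lower with CpG, and 595 and 1398 with R848. Scaling by the median of ratios in place of total UMIs moved the median of all genes by -0.12 with CpG and -0.19 with R848 on the log2 scale. With it, the R848 split became 694 higher and 927 lower, and 42.8% of the genes called were higher instead of 31.7%. Malat1, a nuclear RNA whose share of a cell's UMIs is used as a sign of RNA quality, stood at 39166 and 50351 CPM in CpG and R848 members against 19147 and 22316 CPM in resting cells. Median depths were 6610.5 and 6334 UMIs per cell in the members against 9272 and 7762 in resting cells, and the part of both in the contrast was not tested. Log2 ratios below carry the added 5 CPM, while folds are plain CPM ratios.

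Of the 37 genes of the maturation list, 36 could be measured, and 34 were higher in the members with CpG and 33 with R848, with medians of 2.91 and 3.05 on the log2 scale beside -0.25 and -0.33 for all genes measured. Ccr7 and Fscn1 chose both classes, and the list is of genes of the same programme, chosen with earlier results of these data known. A high count was thus favoured beforehand, and it only describes the classes. Serpinb6b, a serine protease inhibitor of the granzyme-inhibiting family, stood at 703 CPM in CpG members and 1209.8 CPM in R848 members, against 19.1 and 50.6 CPM in the resting cells. It was 36.7-fold higher (28.3 to 48.4) with CpG and 23.9-fold higher (19.7 to 29.3) with R848. Nudt17, a nucleoside diphosphate hydrolase gene, was at 446 and 423 CPM in the members and 10.5 and 9.46 CPM in resting cells. The chemokine gene Ccl22, whose product attracts CCR4-bearing T cells, reached 928 and 945 CPM from 28.1 and 37.4 CPM, 33.0-fold higher (26.6 to 41.4) and 25.3-fold higher (20.2 to 32.1). Cst7, the cystatin F gene, was the lowest of the list at log2 ratios of -0.80 and -0.73. In all these genes except Cst7 both member groups lay far above both resting groups.

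Other genes with the highest ratios included Cacnb3, a calcium channel subunit (366 and 446 CPM against 11.2 and 11.8 CPM), and Glipr2 (792 and 465 against 28.1 and 20.8 CPM). Tnfrsf4, the gene of the receptor OX40, stood at 218 and 352 CPM against 6.70 and 7.09 CPM. Gadd45b, a stress-response gene, was at 987 and 1151 CPM against 59.7 and 72.3 CPM. The resting cells thus held little of any of these transcripts in either library. Ankrd33b, Mir155hg (the host transcript of the microRNA miR-155), Socs2 (a feedback inhibitor of cytokine signalling) and Lima1 (an actin-binding protein) completed the CpG list, with log2 ratios of 4.11, 4.04, 4.00 and 3.86. With R848, Laptm4b and Tspan3, both of lysosomal or membrane-spanning proteins, had log2 ratios of 4.12 and 4.08, and 3.55 and 3.63 with CpG.

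**Figure D3:**
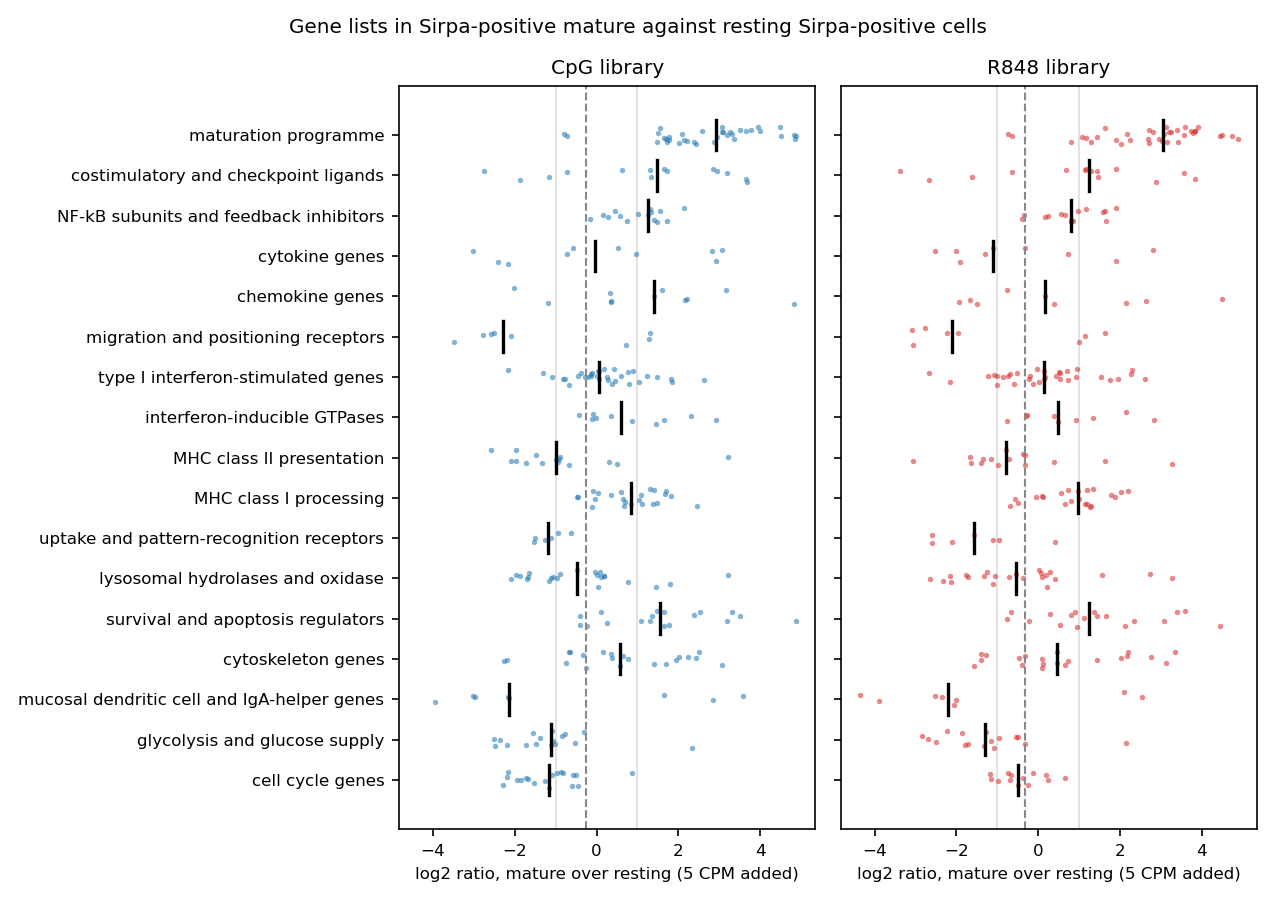
Log2 ratio of members over resting Sirpa-positive cells (horizontal axis, 5 CPM added) for the measured genes of 17 lists (vertical axis) in the CpG library (left) and the R848 library (right). Points are genes, black bars are list medians, the dashed line is the median of all genes measured and the grey lines mark 2-fold. The maturation list has the highest median in both libraries, 2.91 and 3.05, which the choice of cells by Ccr7 and Fscn1 favoured beforehand.

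Costimulatory and checkpoint ligands, the surface proteins that tune T cell activation, differed in direction. Of 19 genes listed, 14 were measured, with 9 higher and 3 lower with each agonist. Cd83 stood at 493 and 817 CPM in the members against 49.8 and 64.3 CPM. Pvr, the ligand of DNAM-1 and TIGIT, had the highest ratio with CpG (109 against 3.83 CPM) and Cd200, an inhibitory ligand, with R848 (263 against 13.7 CPM). Cd86, a ligand of CD28, was not higher than in resting cells, with 85.0 and 86.8 CPM in the members and 142 and 138 CPM in resting cells. Lgals9, the galectin-9 gene, was 8.57-fold lower (5.72 to 13.4) with CpG and 17.5-fold lower (9.64 to 35.6) with R848.

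Genes of the NF-kB pathway, which drives much of maturation, were higher in part. All 15 listed were measured, and 9 were higher with CpG and 5 with R848, and none lower. Among all genes measured 10.5% were higher with CpG and 10.8% with R848. Relb, Traf1 and Birc3 are also on the maturation list, so this count is not separate from that one. The same holds for Bcl2l14, Birc3, Serpinb9 and Serpinb6b among the survival genes below. Traf1, an adaptor of TNF receptors, was at 1186 and 1201 CPM against 267 and 319.6 CPM, and Relb, a subunit of the non-canonical arm, at 873 and 1010.4 against 297 and 321 CPM. Nfkb1 had log2 ratios of -0.17 and -0.39. Of 22 survival and apoptosis genes 18 were measured, and 13 and 10 were higher, among them Bcl2l14 at 387 and 300.0 CPM against 34.1 and 31.2 CPM. Fas, the death receptor gene, was also higher, at 145 and 136 CPM against 11.5 and 6.62 CPM.

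Among chemokines, Ccl5 and Ccl22 were far above their resting levels with both agonists. For Ccl5 the members held 4955 CPM (4848 to 5063) with CpG and 6124 CPM (6005 to 6244) with R848, against 549.5 CPM (524 to 576) and 984 CPM (943 to 1028) in resting cells and 295 CPM (247 to 350.3) in the Control cells that met the rule. Ccl5 (chr11:83525778-83530518, minus strand) was 9.02-fold higher (8.56 to 9.50) in the members with CpG and 6.22-fold higher (5.93 to 6.52) with R848. Ccl17, another CCR4 ligand gene, differed between the libraries: 797 CPM in CpG members and 326 CPM in R848 members, over 168 and 249 CPM in resting cells. Its neighbour Ccl22 was at like levels, 928 and 945 CPM. In the GENCODE M21 annotation of GRCm38, from which gene positions here are taken, Ccl22 lies at chr8:94745590-94751699, plus strand, and Ccl17 at chr8:94810453-94812036, plus strand. Over the list of 22 chemokine genes, 11 were measured with CpG (6 higher, 2 lower) and 9 with R848 (3 higher, 3 lower). The lowest ratios were those of Cxcl2 with CpG (-2.02) and Ccl4 with R848 (-1.95).

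Of 22 cytokine genes, 3 were higher and 3 lower of 10 measured with CpG, and 2 and 5 of 9 with R848. Il15 had the highest ratio with both agonists, at 69.4 and 69.9 CPM against 3.83 and 5.67 CPM. Its receptor chain Il15ra, which presents the cytokine to natural killer and CD8 T cells, was at 190.0 and 163 CPM against 17.9 and 12.8 CPM. Ltb, the lymphotoxin beta gene, had the lowest, at 80.8 and 117 CPM against 688 and 699.7 CPM. Il12b and Il6 were limited by the rule and stood at 3.02 and 4.22 CPM and at 39.2 and 12.0 CPM.

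Of 21 migration and positioning genes, 8 were measured besides Ccr7, and 5 were lower with each agonist. Ccr1 stood at 21.7 and 30.1 CPM against 292 and 292 CPM. Itgae, the integrin chain CD103, was at 15.1 and 12.7 against 133 and 142 CPM. Itga4 was higher, 2.46-fold higher (2.18 to 2.77) and 3.14-fold higher (2.77 to 3.57), as was Icam1 with log2 ratios of 1.31 and 1.14. Of 26 uptake and pattern-recognition receptors, 6 and 7 were measured, with 4 and 5 lower and none higher. Among all genes measured 18.1% were lower with CpG and 23.4% with R848. The lectin Clec4a2 was among the lower ones (22.9 and 10.8 against 75.9 and 91.2 CPM). With R848 it reached 20 CPM in the resting cells alone, and a gene measured that way could not have counted as higher. The receptors of the agonists were near the limit of detection in the members: Tlr9 had 2 and 1 UMIs and Tlr7 2 and 0. Differences in them were not detectable at this depth.

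Antigen presentation genes split by class. Of 15 MHC class II presentation genes, 7 were lower and 1 higher with CpG, and 6 and 2 with R848. H2-Ab1, a class II chain, stood at 4784 and 6718 CPM in the members against 13389.5 and 13384 CPM. March1, whose product turns over surface class II, was at 11.5 and 7.23 CPM against 93.8 and 96.5 CPM. Lgmn, the asparaginyl endopeptidase legumain, went the other way, at 521 and 384 CPM against 52.0 and 35.0 CPM. Of 23 class I genes, 11 of 23 measured were higher with CpG and 10 of 22 with R848, and none lower. H2-Q6 had the highest ratio, 2.47 and 2.19, but it shares sequence with H2-Q7 and its counts are uncertain. H2-K1 was at 2767 and 2880.5 against 1062 and 1254 CPM.

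Mucosal and IgA-helper genes also divided. Of 17 listed, 8 were measured, with 3 higher and 5 lower with CpG and 2 and 6 with R848. Aldh1a2, the retinaldehyde dehydrogenase that makes retinoic acid, stood at 538 CPM (503 to 574) and 163 CPM (144 to 184) in the members, 40.2 CPM (33.5 to 47.9) and 24.1 CPM (18.0 to 31.7) in resting cells and 31.3 CPM (17.1 to 52.6) in Control. Plet1, a surface protein gene, had the lowest ratio of the genes called lower with each agonist, at 45.8 and 31.9 CPM against 779 and 758 CPM. Il22ra2, the soluble decoy receptor of interleukin-22, was at 104 and 33.1 CPM against 849 and 565 CPM. Alox5ap (leukotriene synthesis), Ckb (creatine kinase), Ifitm6 and the lectin Clec5a were among the lowest with both agonists, with log2 ratios of -3.69, -3.62, -3.21 and -3.14 with CpG and -3.90, -3.66, -3.84 and -3.73 with R848. With CpG the list went on with Qpct, Saa3, Ccr1, Epcam, Ppfia4, Parvg and Pak1, and with R848 with S100a8, Ly6d, Il22ra2, Pilra, Pilrb2, Siglece and Unc119. S100a8 and Ly6d are neutrophil and plasmacytoid cell genes, at 91.7 and 88.4 CPM in the resting cells of the R848 library. With cells that carried markers of other types left out, their ratios turned from -4.11 and -4.06 to 0.19 and 0.19.

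Most glycolysis genes measured were lower: 12 of 17 with CpG and 11 of 16 with R848, of 19 listed, with medians of -1.12 and -1.30. Ldha, lactate dehydrogenase A, stood at 194 and 138 CPM against 1114 and 927 CPM, and Eno1, an enolase gene, at 75.4 and 69.3 against 453 and 417 CPM. Pfkfb3, whose product makes an activator of phosphofructokinase, was the exception, at 229.8 and 233 CPM against 41.5 and 48.7 CPM. Of 23 lysosomal genes, 3 were higher and 9 lower with CpG, and 3 and 10 with R848. Of 22 cytoskeleton genes, 21 were measured, with 8 and 7 higher and 2 and 4 lower, from Vim (-2.25 and -1.57) to Marcksl1 (3.08 and 3.12). Of 20 cell cycle genes, 11 of 19 measured were lower with CpG and 2 of 13 with R848, where 18.1% and 23.4% of all genes measured were lower. Resting cells with markers of dividing cells or of other types were not left out of these counts, and their part was not tested. The summed lysozyme-cell markers moved with this contrast, at 2221 and 1635 CPM in the members against 10912 and 11603 CPM in resting cells, and their part in it was not tested.

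Type I interferon-stimulated genes had median log2 ratios of members to resting cells of 0.06 with CpG and 0.14 with R848. These lay above the medians of all genes measured, given above. Of 39 type I interferon-stimulated genes, 33 were measured in the members against resting cells, with 6 higher and 3 lower with CpG and 6 and 6 with R848. Among all genes measured, 10.5% were higher and 18.1% lower with CpG, and 10.8% and 23.4% with R848. Isg15, a ubiquitin-like protein gene (chr4:156199424-156200818, minus strand), stood at 2257 CPM (2185 to 2330.3) and 1593 CPM (1533 to 1655) in the members, 629 CPM (602 to 658) and 406 CPM (379 to 434) in resting cells and 94.0 CPM (67.7 to 127) in Control cells of the same rule. Oasl1 had the highest ratio to resting cells with CpG (2.63), Mx1 with R848 (2.62), and Ly6e the lowest with both (-2.16 and -2.67). The interferon-inducible GTPases, 15 listed, had 4 of 10 higher with CpG and 3 of 9 with R848, with Gbp5 at 135 and 111 CPM against 13.4 and 11.3 CPM.

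Promoter sequences are shown for Isg15, which was far above its Control level, and for Tnfrsf9, which differed between the libraries, since each holds a motif of a pathway described here. RefSeq promoters (GRCm38.p6) were searched on both strands for the interferon-stimulated response element (GAAA, any 2 bases, then GAAA) and for the NF-kB site (GGG, any 2 bases, then TTTCC). Of all 32851 windows of 250 bases before to 50 after a start site, 3.44% held the first and 1.63% the second. Among the genes tested, 4303 had a window, and 4.79% and 2.14% held them. Of the 423 genes higher in the members in both libraries, 318 had a window, and 6.92% held the first motif and 5.03% the second. Of the 742 lower in both, 583 had one, with 4.12% and 2.40%. Of 26 type I interferon-stimulated genes with a window, 14 held the first motif (53.8%). A match describes the letters and is not evidence of binding. The 150 bases before each start are given 5′ to 3′ on the gene's strand, with the motif in capitals: Isg15 at chr4:156200819-156200968 (minus strand), where 3 matches overlap, and Tnfrsf9 at chr4:150927849-150927998 (plus strand), with 1 match, at the second of its 2 listed starts.
Isg15: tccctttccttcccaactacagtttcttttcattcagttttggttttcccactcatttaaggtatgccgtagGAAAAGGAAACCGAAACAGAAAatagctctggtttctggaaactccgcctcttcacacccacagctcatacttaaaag
Tnfrsf9: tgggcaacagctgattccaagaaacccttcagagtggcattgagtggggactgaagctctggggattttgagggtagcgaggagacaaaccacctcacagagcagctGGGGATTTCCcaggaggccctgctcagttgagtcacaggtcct
Isg15, with the overlapping response elements, stood at 2257 and 1593 CPM in the members and Tnfrsf9, with the NF-kB match, at 262 and 72.9 CPM, for CpG and R848.

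Against the 73 Control cells that met the same rule, 456 of 3835 genes were higher (11.9%) and 177 lower (4.62%) in CpG members, and 361 of 3657 higher (9.87%) and 205 lower (5.61%) in R848 members. Both contrasts share the Control cells, which held 446844 UMIs. Of the type I interferon-stimulated genes, 28 of 33 measured were higher with CpG and 22 of 29 with R848, with medians of 2.13 and 2.14 beside 0.20 and 0.11 for all genes. Irf7, the transcription factor that amplifies interferon production, stood at 457 and 483 CPM against 4.48 CPM from 2 Control UMIs, 102-fold higher (28.2 to 845) and 108-fold higher (29.8 to 893). No UMI of Oasl1, Oasl2 or Apol10b was found in the Control cells, which allows up to 6.71 CPM (3 counts over the class). Oasl1 was at least 27.3-fold higher with CpG and 15.6-fold with R848, Oasl2 at least 21.8-fold and 17.1-fold, and Apol10b at least 17.2-fold and 18.0-fold. Ifi27l2a was at 1159 and 1737 CPM against 44.8 CPM. All 10 GTPases measured with CpG and all 9 with R848 were higher.

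Lower than in Control were Il1r2, the interleukin-1 decoy receptor (19.3 and 18.1 CPM against 273 CPM), Il22ra2 (104 and 33.1 against 653 CPM) and Pxdc1 (12.1 and 8.43 against 96.2 CPM). The nonclassical class I gene H2-M2 and the histone demethylase gene Kdm6b completed the CpG list, with log2 ratios of -3.12 and -2.63, and Prdx6 and Ifitm6 the R848 list, with -3.03 and -2.76. Of the class II presentation genes, 8 of 14 were lower with CpG and 1 of 14 with R848. The maturation list had 15 of 36 higher and 3 lower with CpG and 14 and 2 with R848, and the other genes did not pass: Relb stood at 919.8 CPM in Control, 873 with CpG and 1010.4 with R848. None of the 15 NF-kB genes passed the limits against Control in either library. The Control cells that met the rule were also less mature than the members. On the rule's scale, median Ccr7 plus Fscn1 was 27.9 in the Control cells, 70.2 with CpG and 54.5 with R848. The 10 maturation markers outside the rule summed to 5013 CPM in the Control cells, against 7656 and 8331 CPM. The Control cells also held more lysozyme-cell transcripts, as given above. The part of maturity and of these transcripts in the contrast was not tested.

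The second question was how the agonists differed in the members themselves. In all, 48 of 4461 genes were higher with R848 (1.08%) and 156 lower (3.5%), 4.57% in either direction. In the resting cells 14 of 5072 were higher (0.276%) and 42 lower (0.828%). Without the Il12b and Il6 limits, which removed more CpG cells, 88 were higher and 243 lower. With median-of-ratios scaling the split was 64 higher and 128 lower, 33.3% higher among the genes called instead of 23.5%. Chemokine, cytokine and costimulatory genes had members lower with R848, and class II genes leaned to R848. Lysozyme-cell markers, at 2221 CPM with CpG and 1635 CPM with R848, proliferation markers, at 180.3 and 73.5 CPM, and Malat1, at 39166 and 50351 CPM, also differed, and their part in the contrast was not tested. No gene below has a replicate, so a difference between 2 pools of mice cannot be told apart from one between agonists.

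Cd40, the receptor through which helper T cells license dendritic cells, stood at 660.4 CPM (622 to 701) with CpG and 198 CPM (177 to 220.2) with R848, 3.34-fold lower (2.95 to 3.79) with R848. In Sirpa-0 mature cells it was 808 and 264 CPM, and in Control members 170.1 CPM. Tnfrsf9, the receptor 4-1BB (chr4:150914562-150946102, plus strand), was at 262 CPM (238 to 288) and 72.9 CPM (60.5 to 87.1), with 20.1 CPM in Control. The groups of these genes were 2 of 13 costimulatory genes lower with R848 and none higher, with a median of -0.34, and 2 higher and 2 lower of 36 maturation genes, with a median of 0.09 beside -0.09 for all genes. Cd83 leaned to R848, at 493 and 817 CPM, and did not reach 2-fold. Zmynd15, a gene of the maturation list, was higher with R848, at 176 CPM (156 to 197) against 47.6 CPM (37.7 to 59.4).

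Of the chemokines, 4 of 9 measured were lower with R848 and none higher: Ccl4, Cxcl1, Ccl3 and Ccl17. Among all genes measured 3.5% were lower and 1.08% higher. Ccl4 (59.1 CPM with CpG and 7.83 with R848) and Cxcl1 (22.9 CPM with CpG) reached 20 CPM with CpG alone. They could therefore not have counted as higher with R848, and nor could Il27 below. Ccl17 was 2.44-fold lower (2.21 to 2.71). Ccl4, a chemokine gene, had 98 UMIs with CpG and 13 with R848, 7.55-fold lower (4.21 to 14.7), and 48.0% of the CpG UMIs lay in 3 cells. Ccl5 did not differ by 2-fold (4955 and 6124 CPM), nor did Ccl22, and Cxcl16 had the highest ratio at 0.71. Of 8 cytokine genes measured, 3 were lower: Ebi3 (229 and 66.9 CPM) and Il27 (61.5 and 15.7 CPM), which encode the chains of interleukin-27, and Il1rn, the interleukin-1 receptor antagonist (315 and 134 CPM). Aldh1a2 was 3.29-fold lower (2.87 to 3.79) with R848, and Ido1, the tryptophan-degrading dioxygenase, 4.47-fold lower (3.03 to 6.79). Class II genes leaned the other way, with a median of 0.43, above the median of all genes given above. Of the 14 measured, 1 passed the 2-fold limit, H2-Eb2, at 138 CPM with R848 and 50.1 CPM with CpG. Type I interferon-stimulated genes had 3 of 33 lower and none higher, with a median of -0.34, from Ly6a (-1.51) to Rsad2 (0.85). GTPases had 2 of 10 lower, led by Ifi47 (-1.23).

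The lowest ratio with R848 was that of Gstm1, a glutathione transferase gene, with 163 UMIs with CpG and 1 with R848. It was 163-fold lower (28.9 to 6484), but was found in only 18.7% of CpG members, with 12.9% of its CpG UMIs in 1 cell. Cd72, an inhibitory lectin gene also of B cells, stood at 245 CPM (222 to 269.9) with CpG and 24.7 CPM (17.7 to 33.5) with R848. It was 96.2 CPM in Control members and 241 and 145 CPM in resting cells, so the R848 members held the least of these groups. Fth1, the ferritin heavy chain, named after its values were seen, stood at 8513 CPM with CpG and 3604 CPM with R848. Batf, a transcription factor of the AP-1 family, was at 195 CPM (174 to 217) and 22.9 CPM (16.2 to 31.4), and was found in 50.9% of CpG members. Clec4a1 (99.5 and 3.61 CPM), the metallothionein gene Mt2 (60.3 CPM, and 1 UMI with R848), Gatm (56.7 and 7.23), Ms4a4b (62.1 and 8.43) and Tpm2, a tropomyosin gene (105 and 17.5), were also lower with R848. Kctd14 (54.3 and 7.23 CPM) and the carbonic anhydrase gene Car13 (154 and 28.9 CPM) followed. Hmox1, haem oxygenase 1, was listed among them by rule, but 135 of its 141 CpG UMIs lay in 1 cell, and without that cell it stood at 3.62 CPM with CpG beside 3.01 CPM with R848. Mt2 was found in 9.13% of CpG members, with 23% of its CpG UMIs in 1 cell.

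Higher with R848 were Cd63, a tetraspanin of late endosomes, at 1575 CPM (1515 to 1636) against 674 CPM (635 to 714), and Ramp3, a receptor-modifying protein of the adrenomedullin receptor, at 342 CPM (315 to 372) against 133 CPM (116 to 151). Both lay above their resting levels, 231 and 189.6 CPM for Cd63 and 7.56 and 6.06 CPM for Ramp3, in R848 and CpG. Tm4sf5 (352 against 112 CPM), Gnl2, a nucleolar GTP-binding protein (329 against 115 CPM), and the troponin gene Tnni2 (221 against 73.0 CPM) were each found in 41.0% to 60.7% of R848 members. Asprv1, a retroviral-like aspartic protease gene, had the highest ratio among genes of at least 50 CPM in the higher class, at 80.7 against 19.3 CPM. Tcf7, the transcription factor TCF-1, was at 71.7 against 26.5 CPM, Pygl, liver glycogen phosphorylase, at 142 against 59.7 CPM, and Galnt1 at 50.6 against 20.5 CPM. Of the Cd7 UMIs with R848, 45 of 89 lay in 1 cell. Sirpa-0 mature cells differed the same way for Cd63 (1809.8 and 881 CPM), Ramp3 (469.6 and 203 CPM) and Cd72 (11.5 and 132 CPM), R848 first.

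**Figure D4:**
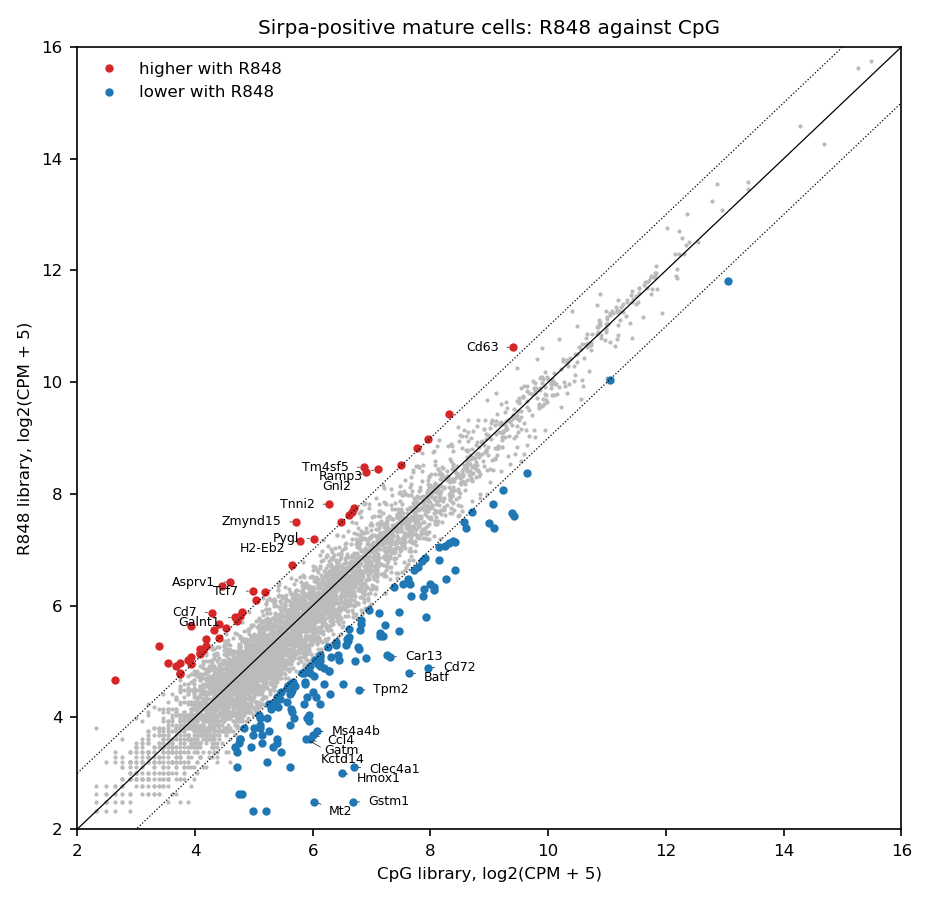
Level of each gene in Sirpa-positive mature cells, as log2 of CPM plus 5, in the CpG library (horizontal axis) and the R848 library (vertical axis). The solid line marks equal levels and dotted lines 2-fold; 48 red genes were higher with R848 and 156 blue genes lower, and the 24 genes with the largest ratios among those of at least 50 CPM are named.

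The ratio of members to resting cells was also compared between the libraries. Of 5555 genes, 79 had a ratio at least 2-fold higher with R848 (1.42%) and 157 at least 2-fold lower (2.83%), 4.25% in all, with counting intervals that left out 0. With median-of-ratios scaling, 102 were higher and 121 lower, 45.7% higher among those called instead of 33.5%. Zmynd15 had log2 ratios of 3.79 with R848 and 1.49 with CpG, and Asprv1 3.74 and 1.95. For Cd72 they were -2.34 and 0.02, for Ccl4 -1.95 and 0.35, for Gstm1 -0.09 and 2.76, and for Mt2 -0.30 and 3.11. Il6st, the gp130 signalling chain, had 0.96 and -0.62. Saa3, an acute phase gene, and Mcm5 and Stmn1, genes of dividing cells, differed in resting cells: Saa3 stood at 59.0 and 5.20 CPM in CpG and R848 resting cells, Mcm5 at 57.8 and 23.2 CPM and Stmn1 at 189 and 58.6 CPM. The difference of Hmox1 turned from -2.88 to 0.42 without its highest cell, and those of S100a8 and Stmn1 turned from -3.56 and 1.71 to 0.22 and -0.74 without cells that carried markers of other types.

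The most alike classes were mature cells of the same library without a Sirpa UMI. These had 5261 and 5091 median UMIs per cell, fewer than the members. With CpG, 69 of 4369 genes were higher in the members (1.58%) and 23 lower (0.526%), 2.11% in either direction, and with R848 41 of 4188 (0.979%) and 14 (0.334%). Fam105a was higher with both agonists, at 92.9 and 86.2 CPM against 27.1 and 30.7 CPM. Il22ra2 (104 against 30.1 CPM), Cd68 (76.6 against 23.3 CPM) and Clec4a1 (99.5 against 33.4 CPM) were higher with CpG, besides Hmox1. With R848 they were Ffar2, a receptor for short-chain fatty acids (97.6 against 32.9 CPM), Ppp1r14a (106 against 39.2 CPM), Ctsa, a lysosomal carboxypeptidase (55.4 against 21.5 CPM), and the class II chaperone gene H2-DMb1 (131 against 56.2 CPM). Each of these genes was higher still in resting cells, such as Fam105a at 457 and 466 CPM, except Clec4a1 and Hmox1 with CpG.

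Gramd3 was lower in the members with both agonists (22.3 and 21.1 CPM against 58.6 and 57.0 CPM). Pla1a, Ndrg2, the tubulin gene Tubb2b and Cd70, a ligand of CD27, were lower with CpG, with log2 ratios of -1.78, -1.36, -1.32 and -1.25. Sct (secretin), Cd81, Cd8a and Ncoa7 were lower with R848, with -2.00, -1.21, -1.20 and -1.19. The class II genes measured had medians of 0.78 and 0.56, beside 0.08 and 0.05 for all genes. H2-Ab1 stood at 4784 and 6718 CPM in the members and 2219 and 3627 CPM in Sirpa-0 mature cells. The lysozyme-cell markers, given above, were also higher in the members, and their part in these differences was not tested.

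Xcr1-positive mature cells without Sirpa, 53 with CpG and 173 with R848, were less alike. In the members 346 of 3841 genes were higher than in them (9.01%) and 123 lower (3.2%) with CpG, and 333 of 4277 (7.79%) and 126 (2.95%) with R848. S100a4, a calcium-binding protein gene, was the highest with both agonists, at 309 CPM (283 to 337) and 308 CPM (282 to 336) against 19.2 CPM (8.76 to 36.4) and 4.88 CPM (1.96 to 10.0). Gngt2, the cyclin gene Ccnd1, Abi3 and, by rule, Hmox1 followed with CpG (3.65, 3.54, 3.39 and 3.28). Ifitm1, S100a6, Gpr183 and Slc7a11 followed with R848 (4.44, 4.41, 4.30 and 4.27). Gpr183, the receptor EBI2 that positions cDC2 in lymphoid tissue, stood at 211 and 231 CPM in the members and 19.2 and 6.97 CPM in Xcr1-positive cells. Cd8a and Clec12a were lower in the members with both agonists. Upp1, Atxn1 and Serpinb1a were lower with CpG (-2.70, -2.47 and -2.45), and Mt2, Sct and B3gnt5 with R848 (-3.40, -3.02 and -2.50). Ccl22 was higher in the members than in Xcr1-positive cells, at 928 against 245 CPM with CpG and 945 against 364 CPM with R848.

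The members varied among themselves. After thinning to 3000 UMIs (220 CpG and 238 R848 cells), the median gene had a variance-to-mean ratio of 1.10 and 1.08, near the 1 of counting noise. The nuclear RNA Malat1 led with 78.4 and 52.8. The other leading genes were Hmox1, Actb, Lyz2, Fth1, Cd74, Cst3 and Ccl5 with CpG and Cst3, Ccl5, Actb, Cd74, H2-Ab1, Lyz2 and Apol7c with R848. Ccl5 had ratios of 21.5 and 30.8: the thinned cells ranged from 0 to 110 UMIs with a median of 10 with CpG, and from 0 to 173 with a median of 13.5 with R848. Apol7c, an apolipoprotein L gene of maturing dendritic cells, was absent from many cells and high in others, with medians of 8 and 6.50 UMIs and upper quartiles of 23 and 20. H2-Ab1 had quartiles of 1 and 24.2 UMIs with CpG and 2 and 30.8 with R848, so the lower class II level in the sum came with a wide spread between cells. Of the 20 genes with the highest ratios in each library, 17 were in common. Lyz2 reached 166 UMIs in 1 CpG cell beside a median of 2.

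**Figure D5:**
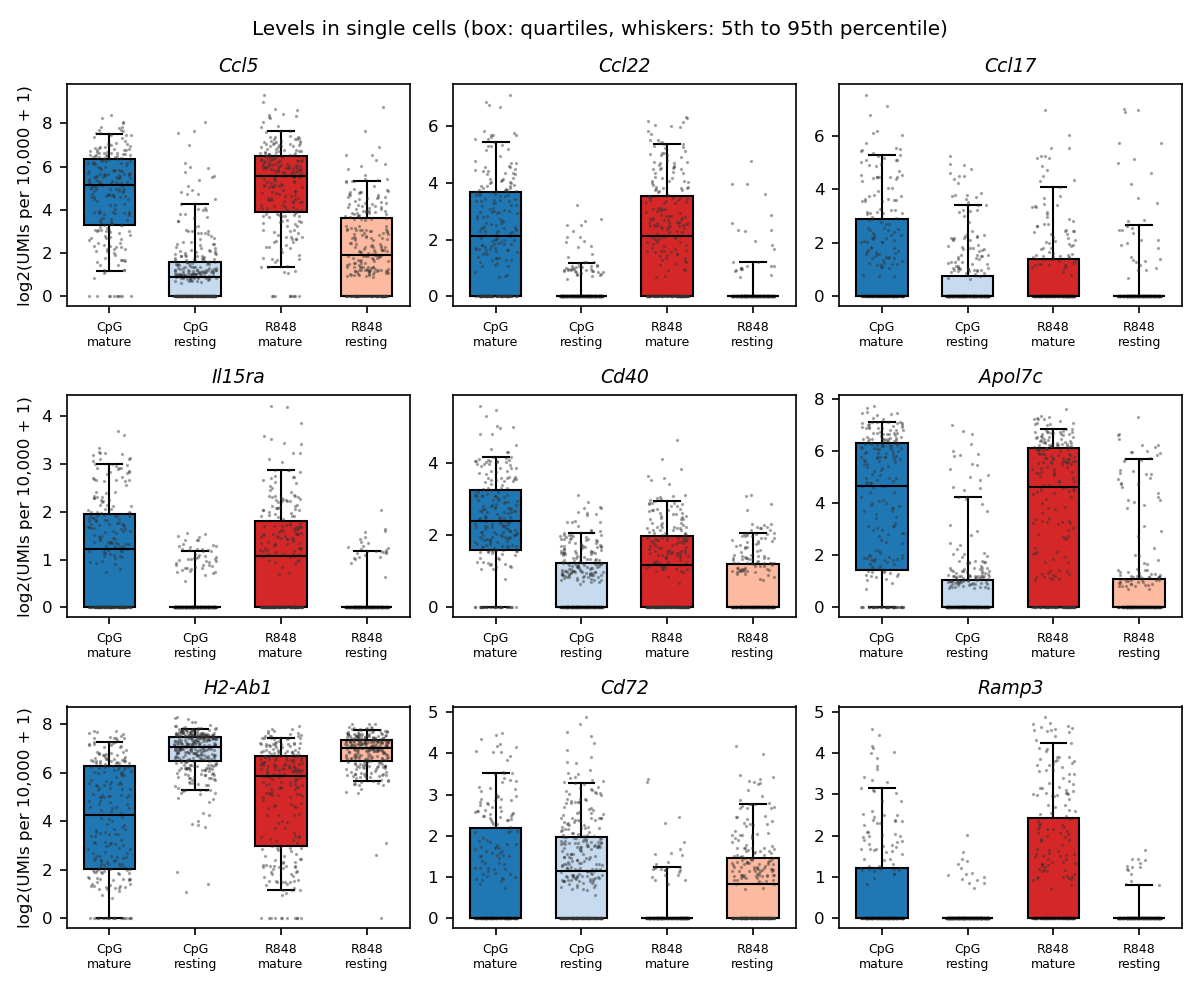
Level of 9 genes in single cells, as log2 of UMIs per 10000 plus 1 (vertical axes), in members (mature) and resting Sirpa-positive cells of the CpG and R848 libraries (horizontal axes). Boxes show quartiles, whiskers the range named in the title and points cells; the median Ccl5 level was 34.7 and 46.3 UMIs per 10000 in the members and 0.844 and 2.70 in resting cells.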

How the data were processed

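Peyer's patch phagocytes of 3 libraries (Control, CpG, R848) were profiled by droplet single-cell RNA sequencing. The deposited matrices hold UMI counts per gene and cell, made by the authors with Cell Ranger 2.0.0 on mm10, per the submitters' processing notes. No release of the gene annotation is given in the sources used here. The barcode and gene files gave names only. No deposited file read here names cell types, so cells were classed by rule and not clustered.

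Cells with at least 500 genes and at most 10% mitochondrial UMIs were kept: 5304 of 5344 Control, 5023 of 5049 CpG and 5107 of 5133 R848 barcodes. The counts of each class were summed per library and divided by the class total (CPM). Levels carry exact Poisson intervals, ratios exact conditional binomial intervals and shares Clopper-Pearson intervals, at the expected count for thinned shares. Differences of ratios carry a normal approximation from the counts. Log2 ratios used 5 CPM added, and genes of the selection rule were left out of all counts of genes. UMIs are counted molecules, and free RNA in droplets adds to them. Depth sets what is detectable: with 0 UMIs the members allow up to 1.81 CPM and the Control cells up to 6.71 CPM.

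With 1 library per group there is no test. Named genes were the 12 highest and 12 lowest called ratios of the 2 agonists and of mature against resting cells in each library, the 6 highest and lowest differences between those ratios, and the 5 highest and lowest against other mature cells. These were taken among genes of at least 50 CPM in the higher class. The extremes of each list, the rule genes, Tlr7, Tlr9 and the 8 most variable genes per library were added. The members, the 17 response lists and the 14 marker lists (462 genes, 9 of them not matched in the matrices) were chosen with earlier results of these data known. Doublets were scored against 2 simulated doublets per cell with 50 neighbours, at 0.8% per 1000 cells. They stayed in, and were removed as an alternative (15 CpG and 16 R848 members). The scripts were tested on simulated counts. Tools were Python 3.11.15, numpy 2.4.6, scipy 1.17.1, pandas 2.3.3, scikit-learn 1.9.0 and matplotlib 3.10.9. Alternatives covered the pseudocount, the minimum level, the scaling, free RNA (3% and 5% of each class total taken away), each limit of the rule, doublets and single cells that dominate a gene. From the C1q genes, free RNA came to 2.61% of the UMIs in CpG members, 2.72% in R848 members and 4.36% in the Control cells. The rule limited those genes in the same cells, so these shares are not an independent measurement.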

Additional observations from a re-analysis of the deposited data

Results flagged for a closer look

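A pair of genes moved in opposite directions between mature and resting Sirpa-positive cells in the libraries, and with 1 library per group the difference was not tested. AA467197, the gene of a small protein also known as Nmes1, stood at 25.9 CPM in CpG members and 107 CPM in CpG resting cells, a log2 ratio of -1.86. With R848 it was at 38.6 CPM in members and 15.6 CPM in resting cells, a log2 ratio of 1.08, so that the ratios differed by 2.94 (2.32 to 3.56). Ifit1bl1, an interferon-induced gene, stood at 44.0 CPM in CpG members and 19.1 CPM in CpG resting cells, a log2 ratio of 1.02. With R848 it was at 9.64 and 26.0 CPM, a log2 ratio of -1.08, and the ratios differed by -2.10 (-2.81 to -1.40).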

How the results depend on the processing

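No paired analysis was possible because each group is 1 library. Of the summary values under the alternatives, 180 kept within the limits set for them and 71 moved. For named genes 1382 did, 261 moved and 9 changed sign. Some values could not move. The limit on Naaa, Xcr1 plus Clec9a removed no member, and a changed minimum level does not enter a gene's ratio. Each of these alternatives, no minimum and 100 CPM among them, gave 84 named values that were the same beforehand. The cause of the moves and sign changes was not tested, except that a higher minimum tests fewer genes and a larger pseudocount shrinks ratios. Alternatives that leave out Lyz2-high cells, the Sirpa limit in mature cells or the top cell of a gene were chosen after seeing the data. Scaling moved the median of all genes by -0.06 for R848 against CpG. With 5% free RNA taken away, 24 named values moved and 60 did not.

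Mature share (Control, CpG, R848): with at least 2 Sirpa UMIs 1.24%, 8.94% and 10.6%, with no Sirpa limit in resting cells 3.30%, 27.9% and 30.8%, and with none in mature cells 22.8%, 85.7% and 88.2%. With a maturity limit of 30 it was 3.35% in Control and 42.8% with R848, and without other cell types 58.3% with CpG and 59.5% with R848. With CpG it was 54.3% without the Il12b and Il6 limits and 34.8% with both at 0. Without Lyz2-high cells Control was at 4.99%.

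Genes higher and lower with R848 against CpG numbered 15 and 82 with 20 CPM added, 17 and 55 at a minimum of 100 CPM, and 88 and 243 without the Il12b and Il6 limits. Without the Sirpa limit in mature cells 29 were higher. For mature against resting cells, 20 CPM added left 489 lower with CpG and 367 higher and 687 lower with R848. A minimum of 100 CPM left 268 and 265 with CpG and 266 and 364 with R848, and 2 Sirpa UMIs left 308 and 254 higher. For the difference between the libraries, counts were 133 higher with 1 CPM added, 23 and 57 with 20 CPM, 168 higher with no minimum and 14 and 45 at 100 CPM. They were 256 lower at the maturity limit of 30, 149 and 295 with 2 Sirpa UMIs, 51 higher with no Sirpa limit in resting cells, 122 and 256 without other cell types and 45 and 98 without the Sirpa limit in mature cells.

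Against Sirpa-0 mature cells, 20 CPM added left 17 and 10 with CpG and 7 and 6 with R848, and a minimum of 100 CPM left 15 and 13, and 7 and 6. With R848, 63 were higher with 1 CPM added and 23 without the top cell of each gene. Against Xcr1-positive cells, 20 CPM added left 179 and 77 with CpG and 165 and 65 with R848, and 100 CPM left 88 and 66, and 79 and 57. Against Control, 20 CPM added left 285 higher with CpG and 200 and 109 with R848, and 100 CPM left 204 and 96, and 145 and 104.

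Signs changed for Hmox1, S100a8, Ly6d and Stmn1. The Hmox1 difference between libraries was 0.85 without doublets, 0.79 with 2 Sirpa UMIs and 0.42 without its top cell, and its R848 against CpG ratio was 0.18 with 2 Sirpa UMIs. The Stmn1 difference was -0.58 with 2 Sirpa UMIs and -0.74 without other cell types. Without other cell types the S100a8 difference was 0.22, and S100a8 and Ly6d were at 0.19 and 0.19 with R848.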
